A study of Drosophila melanogaster with 4 samples.

Results

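The regions described here are 1101 peaks of Rib-GFP that were called with the fkh-Gal4 driver, met no peak called with the sage-Gal4 driver, and lay deep inside protein-coding genes. They were selected on the measured positions of both peak lists. A peak was taken if it lay on chromosome 2, 3, 4 or X, overlapped no sage-Gal4 peak by as much as 1 bp, stood outside the histone and 5S rRNA gene arrays, touched no window of 1 kb on either side of any protein-coding gene's start or end, and had its centre inside a protein-coding gene body. They made up 26.2% (95% interval 24.9 to 27.6) of the 4196 peaks in the fkh-Gal4 list and 33.9% of the 3245 on chromosomes 2, 3, 4 and X. They are called deep fkh-Gal4-only peaks below, a gene that holds the centre of at least 1 of them is called a host, and gene-body DNA beyond 1 kb from every gene end is called deep DNA.

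Ribbon (Rib) is a transcription factor that pairs with other proteins through its BTB domain and binds DNA through its Pipsqueak domain. It is known for its part in the lengthening of epithelial tubes, the salivary gland and the trachea of the Drosophila embryo. Sites that a transcription factor occupies inside long genes often lie in introns, which in flies can hold enhancers and alternative promoters.

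Chromatin immunoprecipitation with an anti-GFP antibody, followed by sequencing (ChIP-seq), was done on embryos of genotype fkh-GAL4::UAS-rib-GFP and on embryos of genotype sage-GAL4::UAS-rib-GFP. Both genotypes carried the same UAS-rib-GFP transgene in addition to the embryo's own rib gene, which the labels do not describe as altered, and both were collected for 8 h, aged for 11 h, taken at stages 11 to 16 and fixed in 1.8% formaldehyde. The 4 samples were 1 immunoprecipitation and 1 input for each driver, each merged from 3 collections, and a peak list was used for each immunoprecipitation. The fkh-Gal4 list held 4196 peaks and the sage-Gal4 list 907.

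Both drivers are named for genes of the embryonic salivary gland and are used to express transgenes there. The sources used here do not say which cells each driver reached, and a peak list holds no expression by which they could be checked. Chromatin came from whole embryos, so a site occupied in few cells and a site weakly occupied in many cells cannot be told apart. Each driver is represented by 1 merged list, so replicate error could not be measured and no p-value is given. The lists hold no reads, the depth is unknown, and the shorter sage-Gal4 list cannot show that a site was unoccupied in those embryos. Intervals are exact, at 95%, and cover counting error only. They take each peak as a separate event, so they are likely too narrow where peaks stand close together.

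Most fkh-Gal4 peaks were not found with sage-Gal4, whether deep inside genes, between genes or at gene ends. The sage-Gal4 list held 907 peaks against 4196, which limits how many could have a counterpart. Of 1289 fkh-Gal4 peaks deep inside genes, 1101 had no sage-Gal4 counterpart (85.4%, 83.4 to 87.3) and 188 were shared. The corresponding share was 87.2% (84.9 to 89.2) of 969 fkh-Gal4 peaks between genes and 70.1% (66.8 to 73.3) of 773 peaks at gene ends. The deep share was therefore close to that between genes, and its interval lay above that of the share at gene ends. Among the 1101, 44 (4.00%, 2.92 to 5.33) had a sage-Gal4 peak within 1 kb, and 246 (22.3%, 19.9 to 24.9) had one within 10 kb.

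The deep fkh-Gal4-only peaks were narrow. Their median width was 116 bp (quartiles 85 and 183, range 70 to 1496), and together they covered 175 kb. The 188 shared deep peaks had a median of 221 bp (quartiles 130 and 379, widest 584). Peaks found with fkh-Gal4 alone had much the same median wherever they lay, at 116 bp deep inside genes, 117 bp between genes and 111 bp at gene ends. At the smallest width in the list, 70 bp, stood 62 deep fkh-Gal4-only peaks (5.63%).

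The share of deep fkh-Gal4 peaks that lacked a sage-Gal4 counterpart fell with width. It was 95.9% (426 of 444) for peaks of 70 to 100 bp and 86.4% (438 of 507) for those over 100 and up to 200 bp. It was 80.7% (113 of 140) over 200 and up to 300 bp, and 62.6% (124 of 198, 55.5 to 69.4) above 300 bp. Peaks over 300 bp thus made up 11.3% of the deep fkh-Gal4-only peaks, against 39.4% of the shared deep peaks. A wide peak has more bases in which an overlap can fall, and the part of width in this order was not tested.

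**Figure D1:**
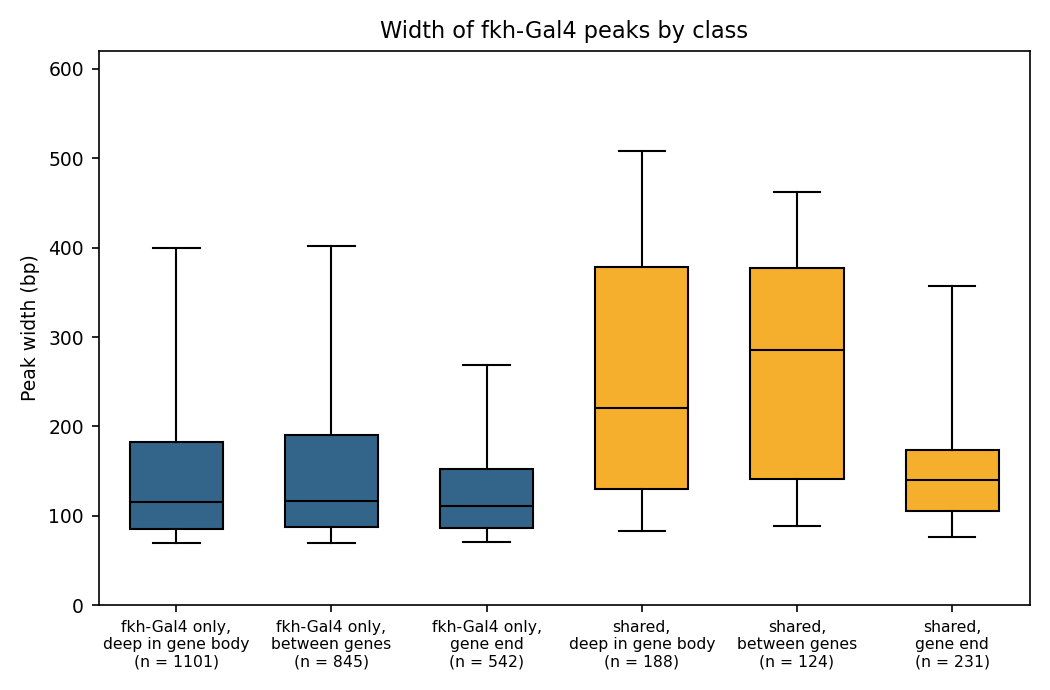
Width in bp (vertical axis) of the fkh-Gal4 peaks in 6 classes, those found with fkh-Gal4 alone in blue and those shared with sage-Gal4 in orange. Boxes give the quartiles and the median and whiskers run from the 5th to the 95th percentile; the deep fkh-Gal4-only peaks have a median of 116 bp and the shared deep peaks one of 221 bp.

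The peaks just inside and just outside the limits of the rule show how it acted. The selected peaks closest to a gene-end window lay 9 bp from it in Glg1 (98 bp wide), 14 bp in Act5C (86 bp) and 15 bp in mwh (126 bp). The fkh-Gal4-only peaks that met a window by least did so over 11 bp in CG7110, 13 bp in crp and 21 bp in Cpsf160. Against the sage-Gal4 list, the nearest selected peaks stopped 24 bp short of a sage-Gal4 peak in Eip75B, 33 bp in tai and 43 bp in kibra. The shared deep peaks with the least overlap met one over 10 bp in pdm3, 12 bp in bab1 and 32 bp in bowl.

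Deep fkh-Gal4-only peaks stood at 16.7 per Mb (15.7 to 17.7) of the 65.8 Mb of deep DNA. Shared deep peaks stood at 2.86 per Mb (2.46 to 3.29) of the same DNA. The density of fkh-Gal4-only peaks was 24.3 per Mb (22.7 to 26.0) in the 34.8 Mb between genes and 16.6 per Mb (15.19 to 18.01) in the 32.7 Mb of gene-end windows. Averaged over all positions, the deep interior of genes and the gene ends therefore held fkh-Gal4-only peaks at like densities. The DNA between genes held more. The deep density varied with distance from gene ends and from the centromere, as given below, and the gene-end density was not taken apart in this way.

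Taken whole, with the DNA next to the centromere included, the chromosome arms differed little in this density. It was 15.9 per Mb on 2L (173 peaks), 16.5 on 2R (194), 17.6 on 3L (227), 16.3 on 3R (275), 16.5 on chromosome 4 (14) and 17.4 on X (218), and all 6 intervals overlap. Chromosome 4 had 14 deep fkh-Gal4-only peaks and 0 shared ones, and its median width of 163.5 bp was the highest of the 6 arms. The shared class gave 42 peaks on 2L, 42 on 2R, 28 on 3L, 47 on 3R and 29 on X.

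Within the major arms the peaks were unevenly spread. Each of the 5 major arms was cut into 10 equal segments, numbered from the centromere. In segment 1 of these arms, 212 deep fkh-Gal4-only peaks stood at 37.0 per Mb (32.2 to 42.4). Of the 212, 112 lay on 3R, out of 275 on that arm, and 10 on X, out of 218. The densities of whole arms include these segments, and the arms were not compared without them. How reads that map to several places were handled is not known, and its part in the densities next to the centromere was not tested. In segments 2 to 10, 875 stood at 14.8 per Mb (13.8 to 15.8), with the lowest value, 10.8 per Mb, in segment 8. Of the 188 shared deep peaks, 173 lay outside segment 1. The density in segment 1 was highest on 3R (42.8 per Mb, 112 peaks), 2R (41.2, 46 peaks) and 3L (37.7, 34 peaks). On 2L, segment 1 held 10 peaks at 14.4 per Mb and segment 2 held 39 at 35.3 per Mb.

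On X, segment 1 held 10 peaks at 25.1 per Mb (12.04 to 46.16), and the highest density lay far from the centromere. Segment 9 of X held 54 peaks at 36.1 per Mb (27.1 to 47.1), among them those of kirre and Tlk, described below. Segment 5 of X held 7 peaks at 4.68 per Mb (1.88 to 9.64), the lowest but 1 of the 50 segments, above the 4.50 per Mb of segment 7 of 2R.

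**Figure D2:**
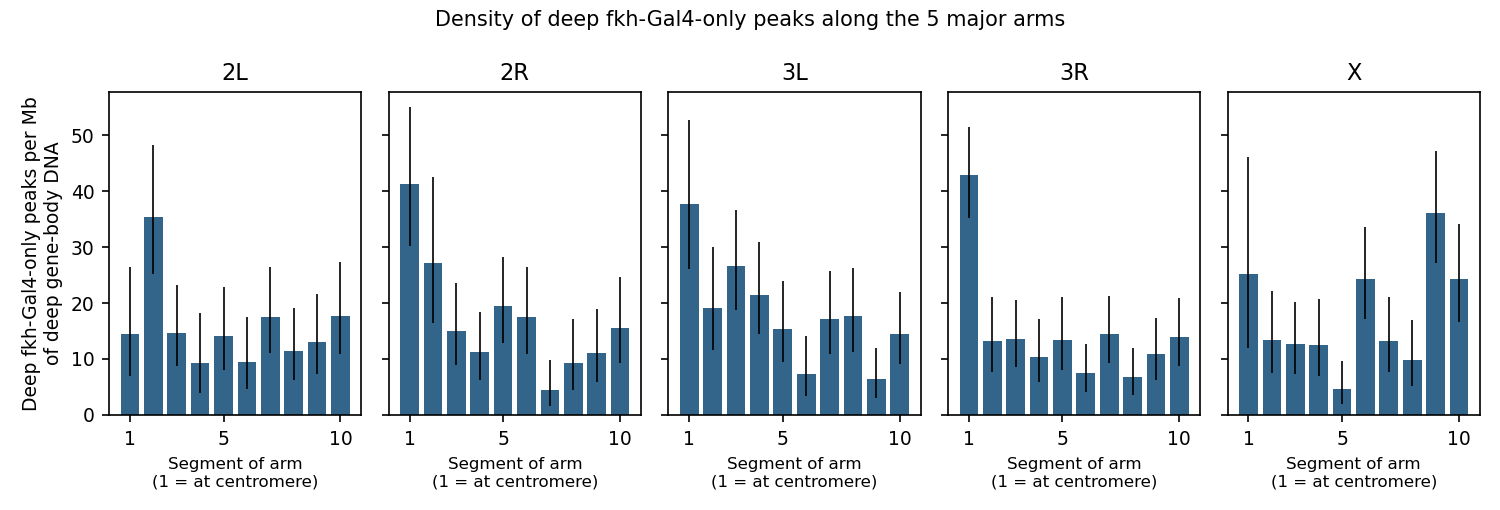
Deep fkh-Gal4-only peaks per Mb of deep DNA (vertical axis) in each of 10 equal segments of the 5 major arms (horizontal axis, 1 next to the centromere). Bars are densities and lines exact 95% intervals for counting error; the tallest bars are segment 1 of 2R, 3L and 3R, segment 2 of 2L and segment 9 of X.

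The density of deep fkh-Gal4-only peaks rose with distance from the nearest end of a protein-coding gene. It was 8.31 per Mb (7.06 to 9.71) at 1 to 3 kb, 15.4 (13.8 to 17.0) at 3 to 10 kb, 21.8 (19.6 to 24.2) at 10 to 30 kb and 31.1 (27.2 to 35.3) beyond 30 kb. The median distance was 10911.5 bp for the peaks (quartiles 4722.5 and 25264) and 6181 bp for the deep DNA itself. Without the segments next to the centromere, the 4 densities were 8.12, 15.0, 21.5 and 19.1 per Mb. The climb over the first 3 distances was therefore about as large without that DNA, and no further climb was seen beyond 30 kb.

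Fkh-Gal4-only peaks between genes also stood denser with each step of distance, with or without that DNA. Their densities at the same 4 distances were 16.4, 21.6, 27.9 and 33.9 per Mb, and 15.6, 20.2, 26.5 and 30.2 per Mb without the segments next to the centromere. Shared deep peaks stood at 1.69, 2.84, 4.54 and 2.24 per Mb. The low density at 1 to 3 kb from a gene end was thus found in all 3 classes. The gene table gives neither inner transcript starts nor exons, so how near a peak lay to these is not known.

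**Figure D3:**
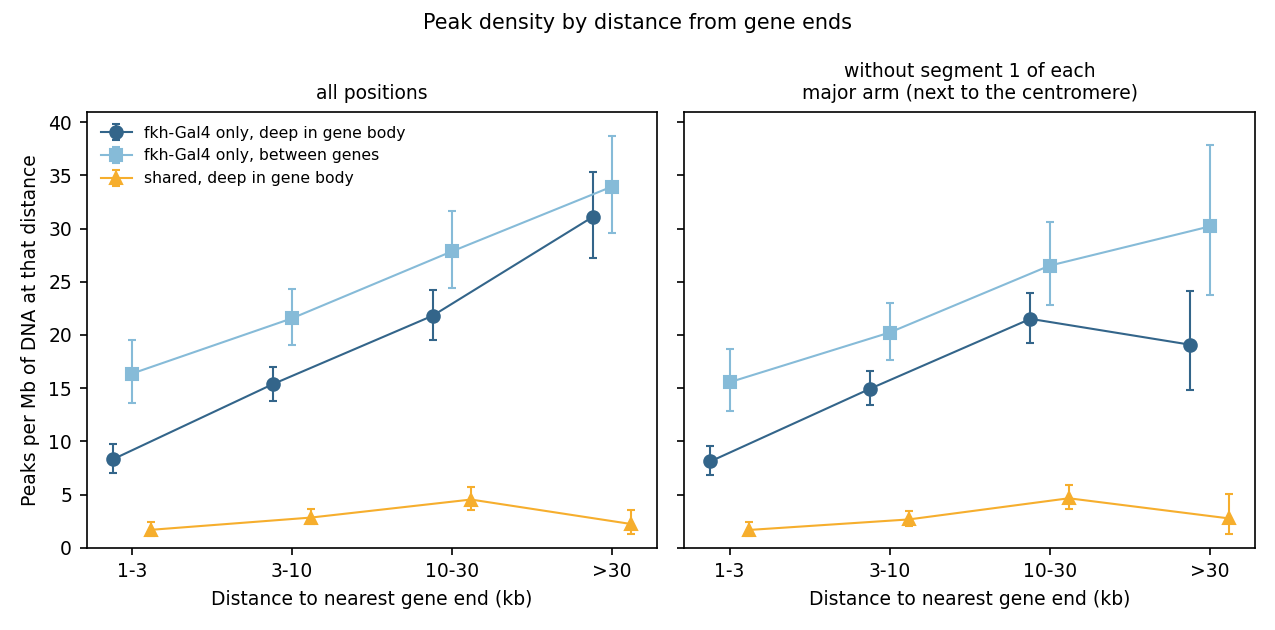
Peaks per Mb of DNA (vertical axis) by distance to the nearest protein-coding gene end in kb (horizontal axis), for all positions on the left and without the segments next to the centromere on the right. Points are densities of 3 classes and bars exact 95% intervals for counting error; deep fkh-Gal4-only peaks climb from 8.31 to 31.1 per Mb on the left and stand at 21.5 and 19.1 per Mb in the last 2 bins on the right.

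The 1101 peaks fell in 451 host genes, which are 6.28% of the 7185 protein-coding genes with any deep DNA. Long genes, which have more deep DNA to hold a peak, were hosts more often. Hosts had a median of 34.0 kb of deep DNA (quartiles 16.3 and 58.6), and genes with deep DNA and no such peak had a median of 2.21 kb. Of genes with 1 to 3 kb of deep DNA, 5 of 1797 were hosts. The share of hosts was 3.12% (54 of 1732) at 3 to 10 kb, 15.1% (149 of 984) at 10 to 30 kb, 38.5% (193 of 501) at 30 to 100 kb and 68.5% (50 of 73) above 100 kb.

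The density per Mb of deep DNA also differed between these classes of genes. Genes with 1 to 3 kb of deep DNA had 5 peaks in 3.33 Mb in all (0.487 to 3.50 per Mb). The density was 7.83 per Mb (6.17 to 9.80) at 3 to 10 kb and 16.1 (14.2 to 18.1) at 10 to 30 kb. It was 18.5 (16.8 to 20.2) at 30 to 100 kb and 26.1 (23.4 to 29.0) above 100 kb. The last value was 19.2 (16.4 to 22.4) without the segments next to the centromere. Short stretches of deep DNA lie close to gene ends, where densities were low, and the 2 measures were not separated.

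Many hosts held a single peak and a few held many. There were 218 hosts with 1 peak (48.3%) and 104 with 2 (23.1%), while 35 hosts with 6 or more (7.76%) held 384 of the 1101 peaks (34.9%). Genes that overlap share peaks, and 52 peaks (4.72%) were centred in more than 1 gene body.

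Hosts were also read for other peaks, which depend on gene length as well. A fkh-Gal4 peak within 1 kb of an own end was found at 104 of the 451 hosts (23.1%, 19.2 to 27.2), and a sage-Gal4 peak there at 39 (8.65%, 6.22 to 11.6). A shared deep peak lay in 95 hosts (21.1%, 17.4 to 25.1), and any sage-Gal4 peak in the body of 148 (32.8%, 28.5 to 37.4). For 298 hosts (66.1%, 61.5 to 70.4), the sage-Gal4 list had no peak in the body or at an end. These sage-Gal4 counts at ends and in bodies were not set beside those of other genes, so they do not show a trait of hosts.

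Set beside other genes in the same broad class of deep DNA, hosts more often held a shared deep peak. The shares were 9.26% of hosts and 0.536% of other genes at 3 to 10 kb of deep DNA, 16.1% and 2.63% at 10 to 30 kb, 25.4% and 7.79% at 30 to 100 kb, and 34.0% and 13.04% above 100 kb. A fkh-Gal4 peak at an own end went no single way. It was found at 25.9% of hosts and 12.2% of other genes at 3 to 10 kb, at 23.5% and 16.4% at 10 to 30 kb, at 21.8% and 14.9% at 30 to 100 kb, and at 10 of 50 hosts (20.0%) and 11 of 23 other genes (47.8%) above 100 kb. Within a class, hosts and other genes were not matched for their deep DNA. These differences were not tested.

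**Figure D4:**
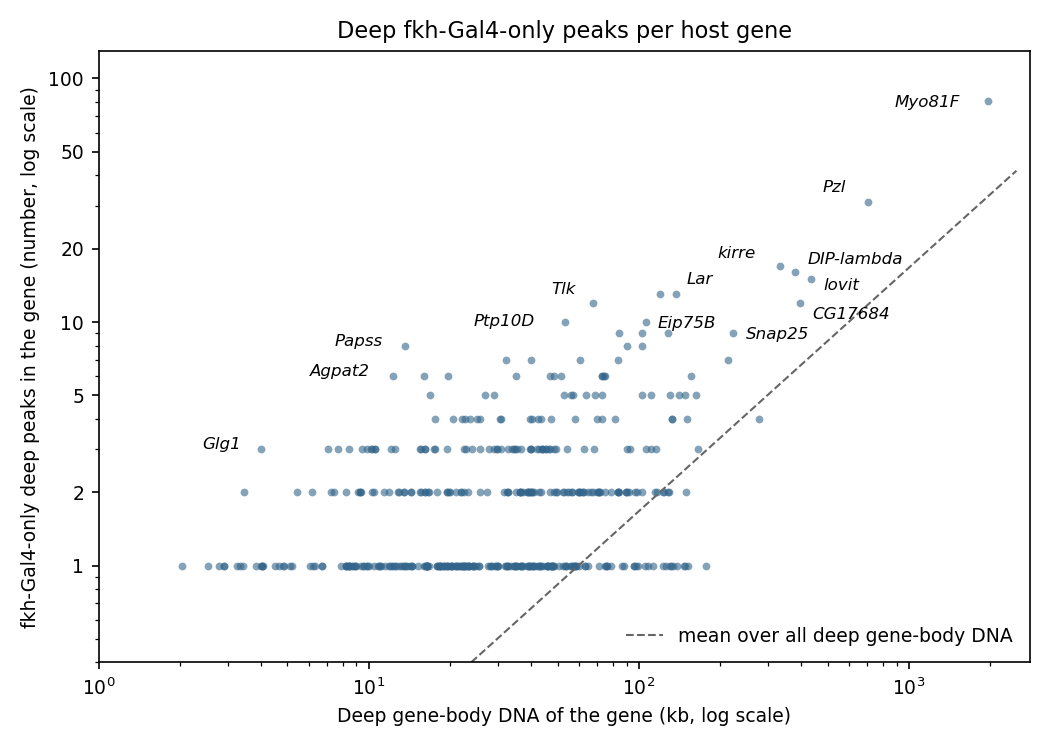
Number of deep fkh-Gal4-only peaks in each of the 451 host genes (vertical axis, log scale) against the gene's deep DNA in kb (horizontal axis, log scale). Each point is a gene and the dashed line is the mean of 16.7 per Mb over all deep DNA; Myo81F has 81 peaks in 1964 kb and Papss 8 in 13.6 kb.

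The hosts with the most peaks were Myo81F and Pzl, giant genes near the centromere of 3R. Myo81F, a myosin heavy chain gene of 1966 kb (3R, 567076 to 2532932), held 81 deep fkh-Gal4-only peaks, 7.36% of all, and 5 shared ones. Its density was 41.2 per Mb (32.8 to 51.3), its median peak width was 105 bp (70 to 414), and 28 of its 81 peaks lay within 1 kb of another fkh-Gal4 peak. Next to it, Pzl (3R, 2554162 to 3263582), which encodes a Piezo-like channel, held 31 peaks at 43.8 per Mb (29.8 to 62.2), with a median width of 88 bp, and 1 shared peak. The 112 peaks of segment 1 of 3R, given above, are the peaks of Myo81F and Pzl, so that segment is no separate value.

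Other giant genes near a centromere gave similar values. DIP-lambda (2R), an immunoglobulin-domain partner of Dpr proteins in the nervous system, held 16 peaks at 42.4 per Mb (24.3 to 68.9). The gene lovit (3L), for a histamine carrier of photoreceptor synapses, held 15 at 34.7 per Mb (19.4 to 57.3). Snap25 (3L), a SNARE protein of vesicle fusion, held 9 at 40.4 per Mb (18.5 to 76.6), and CG17684 (2R) held 12 at 30.5 per Mb (15.7 to 53.2). Giant genes far from a centromere gave both a higher and a lower density. These were kirre (X, 394 kb), with 17 peaks at 51.2 per Mb (29.8 to 81.9), and bru3 (3L, 281 kb), with 4 peaks at 14.3 per Mb (3.90 to 36.6). The intervals are wide, and all those of the giant genes named overlap.

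Away from the centromeres, kirre, Lar, Tlk, Eip75B and Ptp10D held the most peaks. In kirre (X, 2740384 to 3134532), which encodes an immunoglobulin-domain protein through which muscle founder cells attract fusing myoblasts, the sage-Gal4 list had 0 peaks. The receptor tyrosine phosphatase genes Lar (2L, 13 peaks, 1 shared) and Ptp10D (X, 10 peaks, 0 in the sage-Gal4 list) are both known from axon guidance. The 13 peaks of Lar are also those of CG46244, which overlaps it. The axon guidance and neuronal adhesion list as a whole stood at 17.5 per Mb (13.02 to 23.13), and at 13.1 per Mb without kirre, an interval that holds the 16.7 per Mb of all genes.

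Other hosts with 6 or more peaks were of several kinds. Tlk (X), the Tousled-like kinase of chromatin assembly, held 12 deep fkh-Gal4-only peaks and 2 shared ones, and nmo (3L), the Nemo kinase of planar polarity and Wnt signalling, held 6 and 0. The gene pyd (3R), the ZO-1 protein of adherens junctions, held 9 peaks and 1 shared one. It also had a fkh-Gal4 peak and a sage-Gal4 peak within 1 kb of its ends. CG42238 (2L) and CG41520 (2R) held 9 each and no shared one. InR (3R), the insulin receptor, and ds (2L), the Dachsous cadherin of planar polarity, held 6 each and no shared one, and both also had a fkh-Gal4 peak at an own end.

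Some short genes were dense in peaks. Papss (3L, 19845293 to 19860925), whose enzyme makes the sulfate donor used by sulfotransferases, held 8 peaks in 13.6 kb of deep DNA (0.587 per kb). Their widths were 205, 218, 70, 116, 96, 76, 111 and 534 bp in order along the chromosome, and the closest sage-Gal4 peak lay 256298 bp away. Papss is known for its expression in the embryonic salivary gland, where sulfated products are made. Agpat2 (2L), an acyltransferase of phospholipid synthesis, held 6 peaks in 12.3 kb (0.488 per kb), of 82, 369, 99, 141, 125 and 223 bp. Neither gene had a sage-Gal4 peak in its body or a peak of either list at its ends.

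The other hosts with 3 or more peaks and the highest number per kb were of mixed kinds. Glg1 (3L), a Golgi membrane protein, held 3 in 3.99 kb, Gss1 (X), a glutathione synthetase, 3 in 7.06 kb, and Cap-G (2R), a condensin subunit, 3 in 7.68 kb. Obp73a (3L), an odorant-binding protein, held 3 in 8.46 kb, Nop60B (2R), a nucleolar pseudouridine synthase, 3 in 9.47 kb, and Pka-R1 (3L), a regulatory subunit of protein kinase A, 6 in 16.0 kb. Pc (3L) and Acox3 (2L), an acyl-CoA oxidase, completed the 10. None of the 10 held a shared deep peak, and Pc was the one with a sage-Gal4 peak at an own end.

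Deep fkh-Gal4-only peaks often stood close together. Another fkh-Gal4 peak lay within 500 bp of 277 of them (25.2%, 22.6 to 27.8) and within 1 kb of 419 (38.1%). For shared deep peaks the shares were 12.8% and 27.7%, for fkh-Gal4-only peaks between genes 30.5% and 43.1%, and for those at gene ends 10.1% and 17.5%. Peaks within 1 kb of each other were chained into groups. Of the 1101, 714 stood alone and 387 (35.1%) formed 162 groups, 33 of them with 3 or more peaks and 15 with 4 or more. Peaks in groups had a median width of 113 bp and those alone 118 bp. The smallest gap between neighbours in the list was 53 bp.

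The groups with 4 or more peaks spanned 1053 to 3523 bp, and 7 of the 15 lay on X, 2 of them in the same gene, kirre. X held 19.8% of all deep fkh-Gal4-only peaks, and this difference was not tested. CG42238 held 9 peaks within 2992 bp (2L, 21020904 to 21023895), of 72 to 227 bp, which were all the peaks of that gene. Ptp10D held 8 within 3013 bp (X, 11645215 to 11648227), of 72 to 309 bp. In kirre were 2 groups of 6, within 2106 bp (X, 3071186 to 3073291) and within 3523 bp (X, 2828789 to 2832311). These groups covered between 22.0% and 54.7% of their span.

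Among the 15 groups, that of nmo covered the largest share of its span. There, 4 peaks of 544, 684, 808 and 377 bp covered 75.2% of 3210 bp (3L, 8020330 to 8023539), 30796 bp from the nearest gene end. In Tlk, 5 peaks covered 62.0% of 3220 bp, and 1 of them was the widest of all 1101 (X, 3727996 to 3729491, 1496 bp). Pka-R1 had 4 peaks over 60.4% of 1053 bp, and InR 4 over 45.7% of 1958 bp. LpR2, a lipophorin receptor, had 5 peaks of 71 to 537 bp over 30.4% of 2983 bp. None of the 15 groups had a shared peak or a fkh-Gal4 peak of another class within its span, and the distance to the closest sage-Gal4 peak ranged from 1232 bp in X11Lbeta, an adaptor protein gene, to 358701 bp at 1 of the kirre groups.

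**Figure D5:**
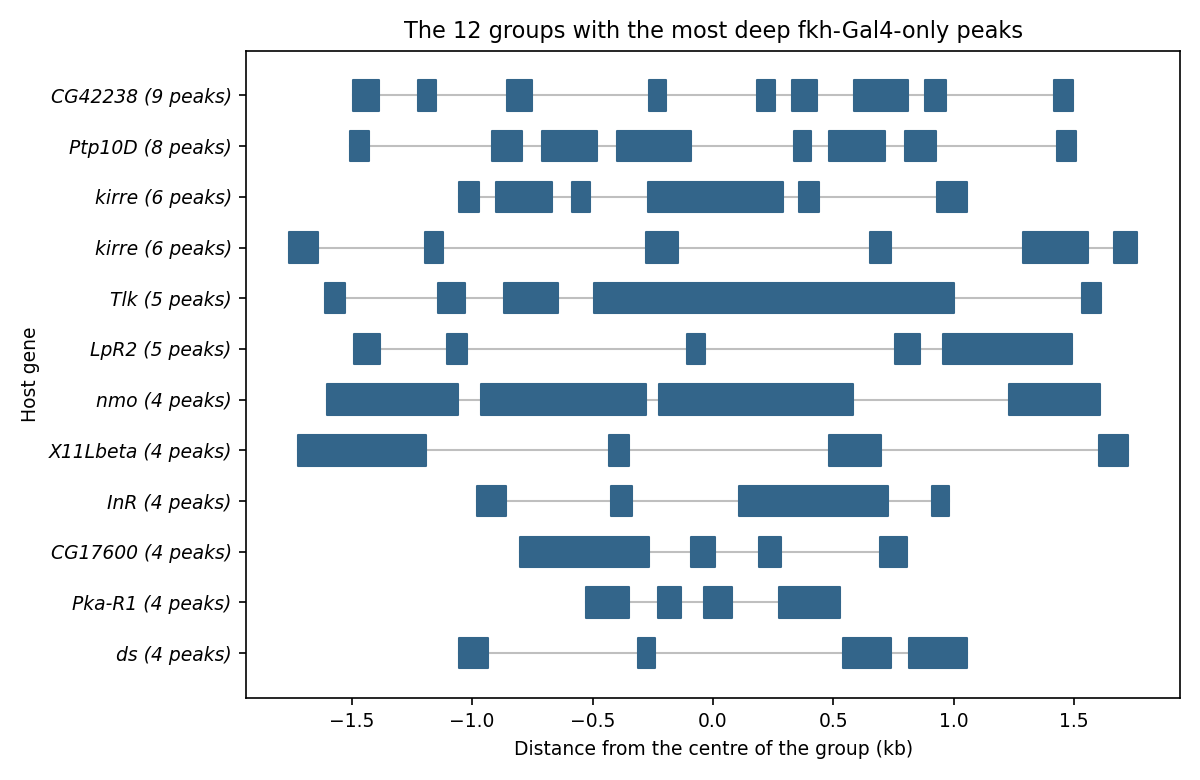
Peaks (blue blocks, to scale) in the 12 groups with the most deep fkh-Gal4-only peaks, 1 row per group with its host gene, against distance in kb from the centre of the group. The groups have 4 to 9 peaks each, and the widest block is the 1496 bp peak of Tlk.

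The widest peaks were not all in groups of this size. Hosts are ranked here by their widest peak alone. After Tlk came CG34376 (3R, 22451615 to 22452625, 1011 bp), nmo (808 bp), shakB, a gap junction innexin (671 bp), and InR (619 bp). They were followed by kirre (561 bp), rdgA, a diacylglycerol kinase of photoreceptors (549 bp), Rbp6, an RNA-binding protein (542 bp), Lar (541 bp) and LpR2 (537 bp). The peak in Rbp6 was the gene's sole deep fkh-Gal4-only peak, 8061 bp from the next fkh-Gal4 peak. That in CG34376 lay 303887 bp from the closest sage-Gal4 peak, and the 2 nearest to one were those of Rbp6 (8322 bp) and LpR2 (8342 bp).

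Genes were also read in 14 lists by function, each as the number of hosts and the peaks per Mb of deep DNA. Over all genes with deep DNA, 6.28% were hosts and the density was 16.7 per Mb. The share of hosts was 3.12% at 3 to 10 kb of deep DNA, 15.1% at 10 to 30 kb and 38.5% at 30 to 100 kb. Median deep DNA was 21.0 kb in the nuclear receptor list, 43.9 kb in the BTB and Pipsqueak-domain list and 6.26 kb in the Polycomb and Trithorax list. In density the nuclear receptors and ecdysone-response genes stood highest, at 46.7 per Mb (31.8 to 66.3). They gave 8 hosts of 22 genes with deep DNA and 31 peaks. Eip75B, the E75 nuclear receptor, held 10 of these, with 2 shared deep peaks and 5 sage-Gal4 peaks in the body. Eip78C held 6 peaks of 70 to 107 bp, Hr4 5, Hr3 4 and ftz-f1 3, all of them nuclear receptors that act in the hormone cascades of moulting and metamorphosis. Eip74EF, E23 and EcR, the ecdysone receptor, held 1 each. The 4 peaks of Hr3 are also those of CG46321 and CG12912, which overlap it. Without Eip75B the list stood at 37.7 per Mb (23.3 to 57.6).

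The list drawn up for factors with a BTB or Pipsqueak domain, as Rib has, gave 9 hosts of 17 and 22 peaks. Its density was 31.8 per Mb (19.9 to 48.2), and 25.01 per Mb without chinmo. Whether each listed gene, jim among them, has such a domain was not checked. In chinmo (2L), a BTB zinc-finger factor of neuronal temporal identity, 6 peaks of 79 to 181 bp lay 23957 to 31100 bp from the closest sage-Gal4 peak. The paralogs bab1 and bab2 (3L), which act in leg and ovary patterning, held 3 each. Those of bab2 were wide, at 465, 211 and 447 bp, against 350, 115 and 88 bp in bab1, which also had a shared peak of 83 bp. The other hosts were jim (3 peaks), rib and lola (2 each), and ab, psq and br (1 each).

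The gene rib (2R, 19270078 to 19281396) held 2 deep fkh-Gal4-only peaks, of 87 bp (19271611 to 19271697) and 90 bp (19272154 to 19272243), and 1 shared peak of 253 bp. The 2 lay 3971 and 3425 bp from the closest sage-Gal4 peak. The driver genes fkh and sage, the secretory regulator CrebA and the small BTB protein gene lolal had no deep fkh-Gal4-only peak. Of these, sage has no deep DNA, fkh 2287 bp, lolal 2096 bp and CrebA 15818 bp.

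The Polycomb and Trithorax list gave 4 hosts of 22 and 8 peaks at 39.5 per Mb (17.1 to 77.9), and 26.0 per Mb without Pc. In Pc (3L), the chromodomain protein that binds the Polycomb histone mark, lay 3 peaks of 111, 94 and 425 bp in 9.82 kb of deep DNA, 1231, 2620 and 8303 bp from the closest sage-Gal4 peak. In ph-p (X), a Polyhomeotic subunit of the same complex, lay 3 of 203, 108 and 111 bp within 10.2 kb, with no sage-Gal4 peak in the gene. The hosts fs(1)h and kis, of the Trithorax group, held 1 each.

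By intervals that count each peak separately, these 3 lists were the ones whose lower bound lay above the density of all genes. For 2 of them this rested on 1 gene, since the interval held 16.7 per Mb for the BTB and Pipsqueak-domain list without chinmo (14.3 to 40.6) and for the Polycomb and Trithorax list without Pc (8.43 to 60.6). The salivary gland list lay below it in density, with 4 peaks at 5.17 per Mb (1.41 to 13.2). Its share of hosts was not low for its median of 24.5 kb of deep DNA. It was 3 of 20 (15.0%), beside 15.1% of all genes with 10 to 30 kb. Its hosts were klar, which acts in the apical traffic of the gland (2 peaks), sano, which acts in the growth of its tube (1), and the homeodomain cofactor hth (1). With 14 lists of few genes each, and with a density that moved with gene length and distance from gene ends, these values describe the lists and are no test of them.

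The other lists had intervals that held the density of all genes. Tracheal genes gave 5 hosts of 24 at 22.9 per Mb, among them grh, an epithelial transcription factor, and uif, an apical membrane protein of tracheal cells, with 3 peaks each. Polarity and junction genes gave 3 of 24 at 11.1 per Mb, with 2 peaks each in Moe, the ERM protein Moesin, and sdt, the Stardust partner of Crumbs. Actomyosin genes gave 4 of 23 at 8.87 per Mb. Ion channel and synapse genes gave 8 of 30 at 14.5 per Mb, led by the cAMP phosphodiesterase gene dnc (5 peaks) and the potassium channel gene KCNQ (4).

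Signalling genes gave 8 hosts of 47 at 12.3 per Mb, homeobox and other tissue factors 5 of 39 at 11.2 per Mb, with 5 peaks in the neural factor pros (6.12 per Mb, 1.99 to 14.3, without it), and segmentation and Hox genes 3 of 22 at 7.49 per Mb. Muscle genes gave 3 of 23 at 24.3 per Mb and 4.45 per Mb (0.539 to 16.1) without kirre, so 1 gene set that value. Cytoplasmic ribosomal protein genes gave 0 hosts of 15, but these hold 0.0102 Mb of deep DNA in all, too little to show any density.

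Few deep fkh-Gal4-only peaks met an annotated non-coding gene. Overlaps were found for 30 (2.72%), of which 16 were with long non-coding RNA genes, 13 with antisense RNA genes and 1 with the RNase MRP RNA gene, and 0 with tRNA, snoRNA, snRNA or microRNA genes. The shares were 3.19% for shared deep peaks, 6.86% for fkh-Gal4-only peaks between genes and 5.72% for those at gene ends. All 5 peaks in bs (2R), the Drosophila serum response factor of tracheal terminal cells, lay within the antisense gene asRNA:bsAS, and all 3 in ftz-f1 within lncRNA:CR45939. The peak at RNaseMRP:RNA (3R, 23730173 to 23730306, 134 bp), an RNA of rRNA processing, lay inside that gene's 382 bp and within CG10365. The lists carry no strand, so a peak in a gene and in its antisense partner cannot be assigned to either.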

How the data were processed

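The authors deposited, for each driver, a list of peak positions with 3 columns (chromosome, start, end) without any height, enrichment or score. Per the submitters' processing notes, the tools were BWA and MACS2 2.1.0.20140616 and the build was dm6. How multiply mapping reads were handled, which threshold and filters were applied and whether the inputs served as control is not given in the sources used here. No per-sample value column was in the lists.

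Starts were converted to a 1-based count. Gene bodies came from a RefSeq gene table of build dm6, without strand, exons or inner transcript starts. Deep DNA was gene-body DNA outside the 1 kb windows and outside the arrays (111 histone and 100 5S rRNA genes). Densities carry exact Poisson intervals and shares exact Clopper-Pearson intervals, at 95%. A peak counts once per gene in per-gene and per-list values and once in all others. Python 3.11.15, numpy 2.4.6, pandas 2.3.3, scipy 1.17.1 and matplotlib 3.10.9 were used. The rule was tested on simulated peaks of a single arm without either array, so the step that leaves out the arrays was not tested.

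The peaks and the gene lists were chosen with earlier results of these data known. Of 477 names asked in the 14 lists, 5 were not matched. Named genes are rib, fkh, sage, CrebA and lolal. To these were added the 15 hosts with most peaks and the 10 with most per kb among those with 3 or more. Also named are the hosts of the 10 widest peaks, with 1 peak kept per host, and up to 4 hosts of each list. The peaks closest to each limit of the rule and up to 10 peaks in non-coding genes complete them. Genes named beyond these, as in the groups and the fuller lists, were chosen after their values were seen. The alternatives were windows of 500 bp and 2 kb, a 500 bp distance to sage-Gal4 peaks, wider peaks alone, merging within 500 bp, major arms alone, whole peaks in 1 gene body and the ends of all genes. Leaving out the segments next to the centromere, Myo81F or the host with most peaks of each list, was added after the data were seen. Motif searches were planned but not run, for want of a genome sequence in the sources used here.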

Additional observations from a re-analysis of the deposited data

How the results depend on the processing

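For the number of peaks, the number of hosts, the median width and the density, 40 alternative values were computed. Of these, 31 stayed within their interval or within 1.5 times the count, and 9 moved. With the wider fkh-Gal4 peaks alone, 518 peaks in 283 hosts remained, all of them hosts before, at a median of 191.5 bp and 7.87 per Mb. The density was 15.5 per Mb with windows of 500 bp, 18.7 with windows of 2 kb, 14.2 after merging within 500 bp (with a median width of 130 bp) and 14.8 without the segments next to the centromere. Fewer peaks enter by construction in the wider and merged lists. Leaving out the segments next to the centromere removes DNA that held 37.0 per Mb. The cause of the moves with windows of 500 bp and 2 kb was not tested. Of 70 host counts in the gene lists, 62 were within 1.5 times and 8 moved, all with the wider peaks alone, where nuclear receptors kept 4 hosts and BTB factors 7. The motif alternatives were not run.

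No paired analysis was possible because each driver has 1 merged list. The unknown read depth of both lists, and the lack of any measure of peak strength, limit every statement on which peaks the sage-Gal4 list lacks.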
